A study of Rattus norvegicus with 6 samples.

Results

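Cytosolic ribosomal protein genes encode the proteins that assemble with ribosomal RNA into the large and the small subunit of the ribosome. Of 14217 named genes on the array, 42 were taken by symbol: Rpl or Rps followed by digits with an optional a, x or y, together with Rplp0 and Rpsa, leaving out the S6 kinases (Rps6k) and paralogs whose names end in l plus digits. Of these, 29 belong to the large subunit and 13 to the small subunit, and 48 probe sets carried a single one of these symbols. Each gene was represented by its probe set with the highest mean. A further 33 probe sets listed such a symbol together with pseudogenes or other genes and could not be assigned to 1 gene. Rplp1, Rps2, Rps14, Rps18 and other ribosomal proteins were therefore not analysed here as single genes.

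The arrays measured RNA from rat pituitary kept as whole-organ culture, with 3 samples given 10 nM GnRH and 3 control samples. GnRH, gonadotropin-releasing hormone, reaches the gland from the hypothalamus and acts on gonadotropes, a minority of pituitary cells that make the hormones LH and FSH. The sources used here do not give strain, sex, age, length of treatment or vehicle. Whether the 3 samples of a group came from separate cultures or animals is not labelled, so the p-values rest on a spread between samples that may be technical. Values are log2 of the deposited RMA intensity, and log2 fold changes are differences of group means, GnRH minus control.

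Ribosomal proteins are made in near-equal amounts by every growing cell, and their mRNAs are among the most abundant of most tissues. In mammals their transcripts begin with a terminal oligopyrimidine tract (TOP), a C followed by an unbroken run of C and T at the very start of the RNA. Through this tract the mTOR pathway, acting by way of the RNA-binding protein LARP1, turns their translation up and down together, so that mRNA level and protein output can part. In gonadotropes, GnRH is known to act on translation through the ERK and mTOR pathways. The mRNA levels given here do not report on that step.

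The transcription start is shown for 8 members described below, to set this feature beside their values. In 5 a tract opens exactly at the annotated start, and in 3 none does. Windows of 30 bases run from 10 before to 20 after the start annotated by RefSeq on the GRCr8 build, 5′ to 3′ on the gene's strand. In Rpl19, Rps15, Rps24 and Rpsa this start did not match the start listed for the gene itself. The same holds for other members counted below, so the counts depend on the start used. Capitals mark a run of C and T that opens with C at the start itself.
Rplp0 (chr12:46718371-46718400, minus strand): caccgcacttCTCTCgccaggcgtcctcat
Rpl19 (chr10:83519054-83519083, plus strand): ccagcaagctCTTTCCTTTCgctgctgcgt
Rpl28 (chr1:78083513-78083542, minus strand): cccctagtgtCTTTCTTTCCgtctccggcc
Rps15 (chr7:10068096-10068125, minus strand): acaccgcttcCTTTTCCCagcagccgccaa
Rpl39 (chrX:121195877-121195906, minus strand): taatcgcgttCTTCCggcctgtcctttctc
Rps24 (chr16:96507-96536, plus strand): ggtcctcttttcctcctttacagctcgggc
Rps23 (chr2:23814507-23814536, plus strand): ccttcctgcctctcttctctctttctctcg
Rpsa (chr8:128728869-128728898, plus strand): ccgcgctaccctggaacgggtccgtacggc

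A C followed by at least 4 letters that are each C or T stood exactly at the annotated start in 11 of 35 members with a RefSeq promoter (31.4%), against 881 of 33469 promoters of the rat table (2.63%). Allowing the run to begin up to 5 bases to either side gave 19 of 35 members (54.3%) and 5704 of 33469 promoters. In Rps24 and Rps23 no such run opened exactly at the annotated start. In both windows the base there is a T inside a longer stretch of C and T. The runs at the start itself were 5 to 10 bases long. Rpsa had none at the start either, which says only that these letters are not at this annotated start.

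Over the 250 bases before and 50 after the start, GGGCGG, the core of the GC box bound by Sp1 family factors, was found on either strand in 23 of 35 members (65.7%) and in 33.1% of all promoters. CCGGAAG, a core bound by ETS factors, was found in 8 members (22.9%, against 8.75%), and AAGATGGC, a YY1 core that can also span a start codon, in 4 (11.4%, against 3.17%). TATAAA was found in 4 (11.4%, against 14.2%) and the E-box CACGTG, bound by Myc among others, in 3 (8.57%, against 6.42%). CCGGAAG and AAGATGGC can overlap by the letters AAG, and a match describes the sequence and is not a binding site. The 11 members with a tract opening exactly at the annotated start had a median log2 fold change of 0.11, against 0.14 in the other 24. Since 19 of the 35 had a run beginning within 5 bases of the start, some of those 24 have a shifted run. The split thus follows the annotated position and does not separate members with a tract from members without.

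Control 3 stood apart from the other controls before any gene of this family is considered. Across probe sets its log2 values correlated at 0.988 to 0.991 with the GnRH arrays and at 0.983 and 0.986 with controls 1 and 2, which correlated at 0.994 with each other. Xist, the noncoding RNA of X inactivation, divided the arrays in the same way. On the probe set with the widest range it had 9.73, 9.16 and 9.49 in the GnRH arrays and 3.91, 3.66 and 9.77 in controls 1, 2 and 3. No sex is labelled for any of the samples. Medians of the 6 arrays were close, at 64.5 to 67.0 on the linear scale. Hormone transcripts of the labelled tissue were bright, with 14.18, 14.09 and 14.17 for Gh1 (growth hormone) in the GnRH arrays and 14.25, 14.22 and 14.20 in controls.

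Ribosomal protein genes lay slightly higher with GnRH, by a median log2 fold change of 0.12, and none passed the test. The log2 fold change was above 0 in 39 of 42 members, against 47.6% of all 14217 genes, whose median was -0.0089. By limma with Benjamini-Hochberg adjustment over all probe sets, 0 of 42 rose and 0 fell, against 0.556% and 0.0492% of all genes and 0.464% of all probe sets in either direction, with member adjusted p-values from 0.355 to 0.991. At an unadjusted p under 0.05, 1 member lay higher (Rpl30) and 1 lower (Rps13), while 13.2% of all genes met that mark in either direction. SEs of the members ran from 0.083 to 0.21 with a median of 0.12, about as large as the median change. Every GnRH array lay above every control in 1 member, against 8.65% of all genes, and below every control in 1, against 8.62%.

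**Figure D1:**
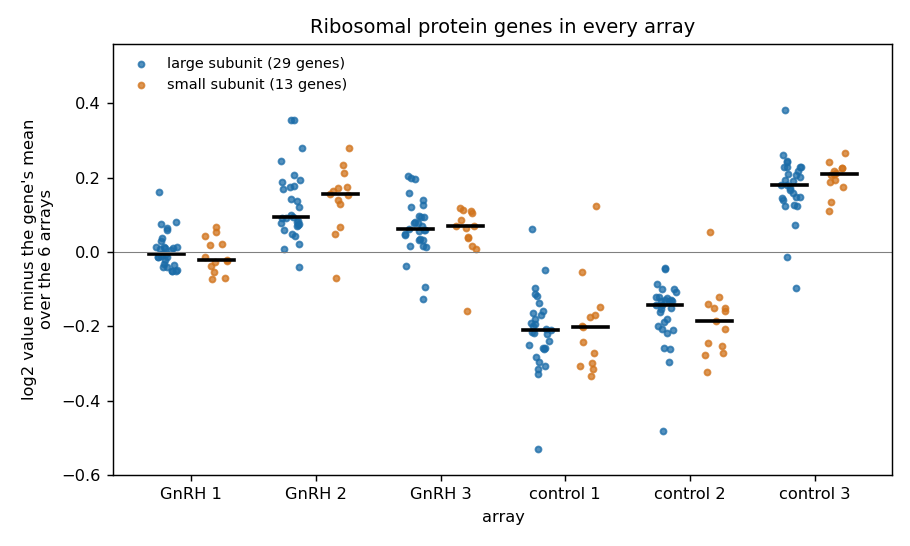
Each point is 1 ribosomal protein gene in 1 array, as its log2 value minus that gene's mean over the 6 arrays, for large-subunit (blue, 29) and small-subunit genes (orange, 13); black bars are medians. Controls 1 and 2 have medians of -0.21 and -0.15 over all members, control 3 has 0.19, and the GnRH arrays lie between at -0.0082, 0.13 and 0.066.

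Most members shared 1 order of the arrays. All 3 GnRH arrays lay above controls 1 and 2 in 39 of 42 members, against 23.5% of all genes. Control 3 was the highest of the 6 arrays in 35 members, against 21.5% of all genes. Both held at once, with the GnRH arrays between controls 1 and 2 on one side and control 3 on the other, in 34 members, against 6.9% of all genes. In the other 181 genes with a mean log2 of at least 10, these 3 shares were higher than in all genes, at 47.0%, 38.7% and 16.6%. The lowest array was control 1 in 28 members and control 2 in 12. Among the GnRH arrays, the first was lowest in 34 members and the second highest in 31, against 4367 and 4595 of all 14217 genes.

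The spread lay in the controls rather than in the treated arrays. The SD of the 3 GnRH arrays had a median of 0.084 over the members and that of the 3 controls 0.23. The control SD was the larger in 38 of 42 members, against 66.1% of all genes. In the other 181 genes with a mean log2 of at least 10 it was the larger in 74.0%. Their median SDs were 0.096 with GnRH and 0.19 in controls. Control 3 exceeded the mean of controls 1 and 2 in 41 members by a median of 0.39. The median excess was -0.020 over all genes and 0.23 over the other 181 bright genes. In the members, this step inside the control group was larger than the difference between the groups. It ran along the same division of arrays as Xist. Between the GnRH arrays and controls 1 and 2, that division cannot be told apart from treatment. Its part in the ribosomal protein values was not tested.

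Set against each side of the controls, the GnRH arrays differed in direction. Their mean was above the mean of controls 1 and 2 by a median of 0.25 over the 42 members, and below control 3 by a median of -0.13, with 2 members above it (Rpl30 and Rpl28). Without control 3, the median log2 fold change was 0.25 and 8 members rose and 0 fell, against 6.25% of all genes that rose and 8.45% called in either direction (limma adjusted p from 0.00272 for Rplp0 to 0.0477 for Rpl14). These 8 were Rplp0, Rpsa, Rps24, Rpl24, Rpl13a, Rpl5, Rpl12 and Rpl14. The same fit called 53 of the other 181 genes with a mean log2 of at least 10, in either direction. That fit sets GnRH arrays with high Xist against controls with low Xist, so treatment and this division cannot be told apart in it. Weighting the arrays by their residual variance called Rplp0, Rpsa, Rps24 and Rpl24, all among the 8 above. These were 4 of 42 members, against 7.13% of all genes that rose in that fit. Control 3 received 0.298, the smallest weight, and control 2 received 2.72, the largest. The weighted fit therefore rests mainly on the same division of the arrays, and the same limit applies to it.

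**Figure D2:**
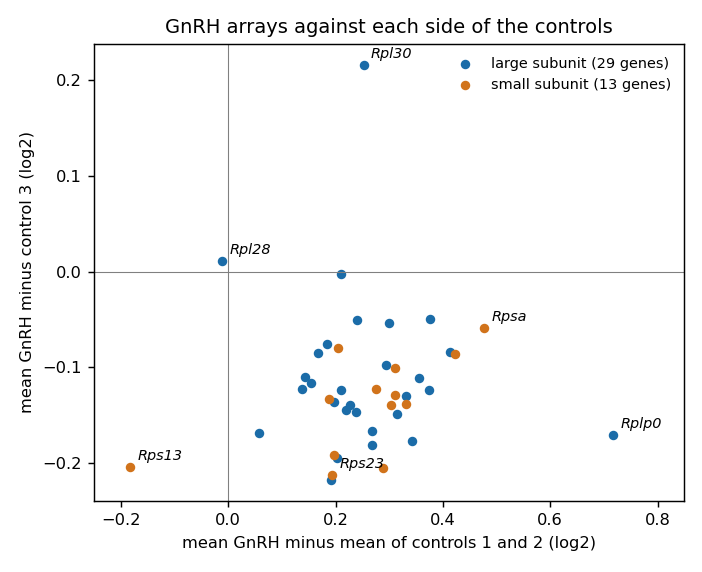
Each point is 1 ribosomal protein gene; the horizontal axis is the GnRH mean less that of controls 1 and 2, the vertical axis the GnRH mean less control 3, both in log2. Most points lie right of 0 and below 0, with Rplp0 farthest to the right at 0.72 and Rps13, Rpl28 and Rpl30 outside the cloud.

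The subunits differed by less than the spread between arrays. The median log2 fold change was 0.12 for the 29 large-subunit genes, of which 27 were above 0, and 0.14 for the 13 small-subunit genes, of which 12 were above 0. The large-subunit median minus the small-subunit median was -0.024. Within the arrays, the large-subunit median minus the small-subunit median, both relative to each gene's own mean, was 0.016, -0.062 and -0.0071 with GnRH and -0.0080, 0.042 and -0.032 in controls. The groups overlapped, and the pooled SD between arrays of this quantity was 0.039. Control 3 exceeded controls 1 and 2 by a median of 0.37 in large-subunit and 0.41 in small-subunit genes.

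**Figure D3:**
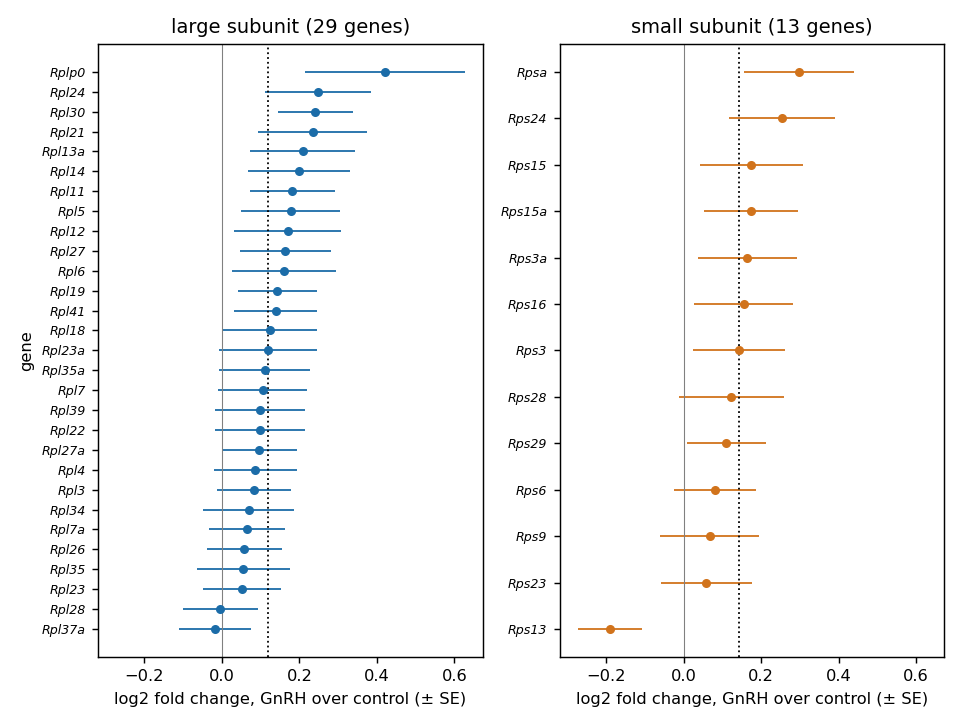
Log2 fold change of GnRH over control for each of the 42 genes with its SE from limma (3 GnRH and 3 control arrays); the dotted line is the median of the subunit, 0.12 for the large and 0.14 for the small. Rplp0 at 0.42 and Rpsa at 0.30 head the subunits, and Rpl37a, Rpl28 and Rps13 lie below 0.

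In the large subunit, the P stalk had the member with the widest excursion. Rplp0 encodes P0, the base of the stalk to which elongation factors bind. It had 11.38, 11.66 and 11.50 in the GnRH arrays, against 10.77, 10.82 and 11.68 in controls. Controls 1 and 2 lay below every GnRH array and control 3 above all of them, so the groups overlapped. The means were 11.51 ± 0.14 with GnRH and 11.09 ± 0.51 in controls (SD, n = 3 each), a log2 fold change of 0.42 ± 0.21 (SE; limma adjusted p = 0.446). Without control 3 it was 0.72 (limma adjusted p = 0.00272), and against control 3 alone -0.17. Rpl12, whose protein sits beside P0 at the stalk base, had 11.14, 11.25 and 11.09 with GnRH and 10.76, 10.88 and 11.34 in controls, where the GnRH arrays again lay between controls 1 and 2 and control 3, over a smaller range.

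The 5S particle, which can bind MDM2 and stabilise p53 when ribosome assembly fails, was represented by Rpl5 and Rpl11. Both log2 fold changes were 0.18, with SEs of 0.13 and 0.11 (limma adjusted p = 0.605 and 0.533). Rpl11 had 11.36, 11.46 and 11.42 with GnRH and 11.13, 11.11 and 11.47 in controls. Control 3 lay only just above the highest GnRH array. Of the 8 listed proteins of the peptide exit tunnel and its rim, 6 were measured (Rpl4, Rpl19, Rpl23a, Rpl26, Rpl35 and Rpl39). Their log2 fold changes ran from 0.055 to 0.14, and in all 6 the GnRH arrays lay between controls 1 and 2 and control 3.

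In the large subunit the log2 fold changes next in size to that of Rplp0 were those of Rpl24, at the bridge between the subunits, of Rpl30 on a dim probe set described below, and of Rpl21. Rpl24 had 10.69, 10.89 and 10.90 with GnRH and 10.42, 10.41 and 10.91 in controls (0.25 ± 0.14, limma adjusted p = 0.499). Rpl21 had 10.44, 10.85 and 10.54 with GnRH and 10.24, 10.24 and 10.66 in controls (0.23 ± 0.14, limma adjusted p = 0.533), and here the second GnRH array was the highest of the 6. At the other end, Rpl37a had 11.85, 11.88 and 11.82 with GnRH and 11.81, 11.77 and 12.02 in controls, a difference of -0.017 ± 0.093. Rpl23, which like Rpl5 and Rpl11 can bind MDM2, differed by 0.051 ± 0.10. Rpl39, on the X chromosome, was the sole X-linked member measured by a probe set of its own. It had 7.46, 7.55 and 7.29 with GnRH and 7.22, 7.24 and 7.56 in controls, with the GnRH arrays between controls 1 and 2 and control 3.

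Small-subunit genes were led by Rpsa, which encodes a protein at the mRNA exit site that is also known as a laminin receptor. It had 11.07, 11.30 and 11.13 in the GnRH arrays, against 10.68, 10.69 and 11.22 in controls, so that 1 GnRH array passed control 3. The means were 11.16 ± 0.12 with GnRH and 10.87 ± 0.31 in controls (SD, n = 3 each), and the log2 fold change was 0.30 ± 0.14 (limma adjusted p = 0.435). Its other 2 probe sets gave 0.27 and 0.24. Rps24, mutated in some human families with Diamond-Blackfan anaemia, had 11.35, 11.54 and 11.41 with GnRH and 10.99, 11.03 and 11.52 in controls (0.25 ± 0.14, limma adjusted p = 0.486). Its dimmer probe set gave 0.34. Of 9 genes listed for that disease, 4 were measured by a probe set of their own (Rps24, Rpl11, Rpl5 and Rpl35a). All 4 had log2 fold changes above 0, like 39 of all 42 members. The 4 values ran from 0.11 to 0.25, and 0 passed.

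Rps6, whose protein is phosphorylated by S6 kinases downstream of mTOR and ERK signalling, had 12.07, 12.15 and 12.16 with GnRH and 11.91, 11.97 and 12.26 in controls, a difference of 0.081 ± 0.11 (limma adjusted p = 0.790). Rps15 and Rps15a lay 0.17 higher each, with SEs of 0.13 and 0.12 (limma adjusted p = 0.629 and 0.597). Rps23, at the decoding centre, and Rps9 had the lowest values above 0 in the small subunit, 0.058 and 0.067. In Rps23 control 3, at 12.41, lay above the GnRH arrays (12.14, 12.22 and 12.23), which lay above control 2 (12.01) and control 1. Rps3, at the mRNA entry channel, and Rps28, near the mRNA exit, differed by 0.14 and 0.12.

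**Figure D4:**
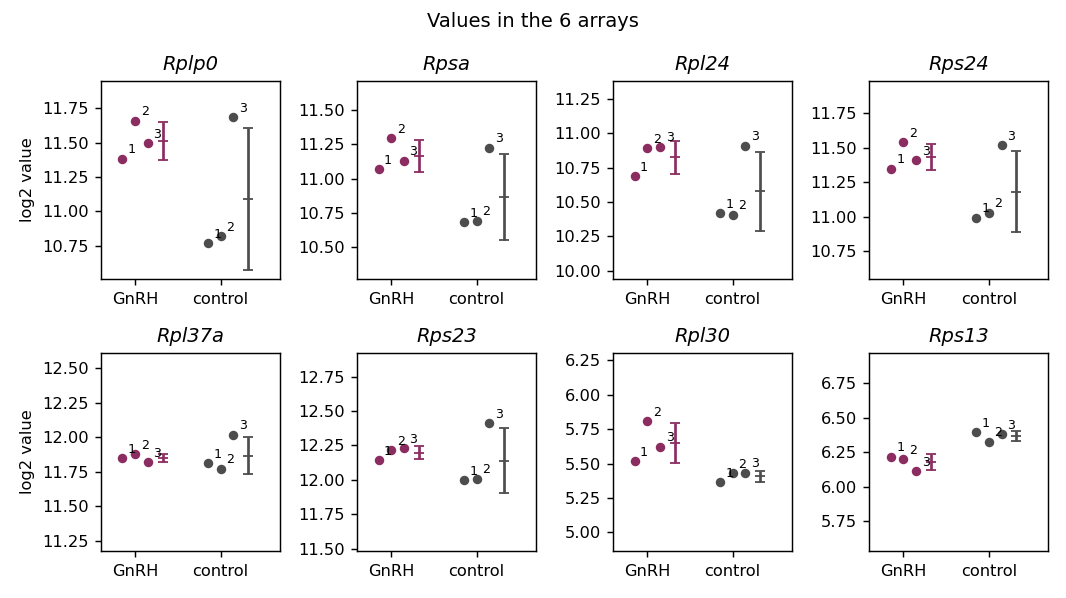
Log2 values of 8 genes in the GnRH arrays and the controls, each point numbered by its replicate, with mean and SD (n = 3) beside the points; every panel spans the same number of log2 units. In Rplp0, Rpsa, Rpl24, Rps24 and Rps23 control 3 lies far above controls 1 and 2, while the dim probe sets of Rpl30 and Rps13 do not show this step.

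The 8 members outside the common order were of 2 kinds. In Rpl21, Rpl41, Rpsa and Rps24 the second GnRH array passed control 3, and in Rps9 control 1 lay above the first GnRH array. The other 3, Rpl28, Rpl30 and Rps13, were dim. Of the 42, 38 had a mean log2 signal of at least 10.2, at or above percentile 98.7 of all named genes, and 4 lay under 8, a limit chosen after the values were seen. These 4 were Rpl39 at 7.39, Rps13 at 6.27, Rpl30 at 5.53 and Rpl28 at 3.5. Signals of different probe sets also depend on the probes, and are no measure of relative transcript abundance. Rps13, a protein of the small-subunit body, had 6.22, 6.20 and 6.11 with GnRH and 6.39, 6.33 and 6.38 in controls, below every control (-0.19 ± 0.083, limma adjusted p = 0.395). Rpl30 had 5.52, 5.81 and 5.62 with GnRH and 5.36, 5.43 and 5.43 in controls, above every control (0.24 ± 0.097, limma adjusted p = 0.355).

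Brighter probe sets that list those symbols together with others gave other values. A probe set with a mean of 11.28, listed under Rps13 and 3 related symbols, had 11.29, 11.32 and 11.33 with GnRH and 11.09, 11.16 and 11.47 in controls, a log2 fold change of 0.075. One with a mean of 11.34, listed under Rpl30 and related symbols, gave 0.12, and one with a mean of 11.29, listed under Rpl28 and 2 others, gave 0.046. The dim probe set of Rpl28 itself gave -0.0036. Dimmer second probe sets of Rpl14 (mean 5.47) and Rpl7 (mean 6.44) gave -0.25 and -0.066, against 0.20 and 0.10 on the brighter ones. The dimmer probe set of Rpl3 (mean 5.87) gave 0.068, against 0.083 on its brighter one. All 33 probe sets shared between a ribosomal protein symbol and others had a log2 fold change above 0, with a median of 0.15, and in all 33 the GnRH arrays lay above controls 1 and 2. They too gave 0 calls.

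As a description, the profile of a member over the 6 arrays correlated with the median profile of the other 41 at a median Pearson r of 0.967, and at 0.9 or more in 34 members. The 2 negative values were those of Rps13 (-0.37) and Rpl28 (-0.31). Among 14175 other genes, 5.3% reached 0.9 with the median profile of the members. All points share the same 6 arrays and their normalization. Across the 42 members, the log2 fold change correlated with the excess of control 3 over controls 1 and 2 at r = 0.715, a value for which both measures share the control arrays.

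Genes that work with the ribosome differed in how far they shared the pattern. Of 19 listed translation factors and other mRNAs of the TOP class, 12 were measured. Their median log2 fold change was 0.17, 11 were above 0, and 0 passed. Eef2, the elongation factor that moves the ribosome along the mRNA, had 11.74, 11.92 and 11.85 with GnRH and 11.34, 11.32 and 11.73 in controls, above every control (0.37 ± 0.12, limma adjusted p = 0.252). Eif3f, a subunit of the initiation factor eIF3, had 9.50, 9.54 and 9.59 with GnRH and 8.97, 9.13 and 9.49 in controls (0.35 ± 0.13, limma adjusted p = 0.301). Eef1g, a subunit of the exchange factor for eEF1A, differed by 0.31 ± 0.16 with overlapping groups (limma adjusted p = 0.469). The excess of control 3 over controls 1 and 2 had a median of 0.42 in this list, beside 0.39 in the ribosomal proteins. Control 3 was the highest array in 7 of the 12, and all GnRH arrays lay above controls 1 and 2 in 11.

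Ribosome biogenesis factors, which process ribosomal RNA and assemble the subunits in the nucleolus, had a median log2 fold change of -0.031 over 49 genes, with 20 above 0 and 0 past the test. Their control 3 excess was 0.22. Control 3 was the highest array in 34 of the 49, and all GnRH arrays lay above controls 1 and 2 in 11. The smallest p-values were those of Riok2, a late assembly kinase (0.29 ± 0.091, limma adjusted p = 0.245), Utp20 (-0.29 ± 0.11, 0.326) and Utp4 (-0.22 ± 0.11, 0.435), the last a component of the small-subunit processome like Utp20. Mitochondrial ribosomal proteins, encoded in the nucleus and translated on cytosolic ribosomes, had a median of 0.080 over 73 genes, with 48 above 0 and 0 past the test. Their control 3 excess was 0.23. Control 3 was the highest array in 32 of these genes, and all GnRH arrays lay above controls 1 and 2 in 37. Mrps6 had the smallest p-value among them, with 7.52, 7.44 and 7.51 in the GnRH arrays and 7.72, 7.86 and 8.03 in controls (-0.38 ± 0.098, limma adjusted p = 0.152). Mrps24 and Mrps34 differed by 0.33 and 0.27 without passing.

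**Figure D5:**
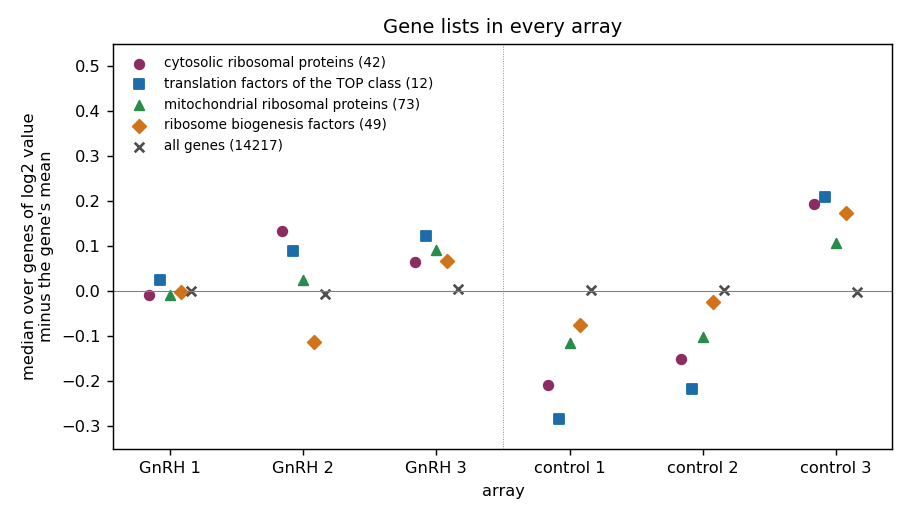
Median over the genes of each list of the log2 value minus the gene's own mean, for each of the 6 arrays; the numbers in brackets are genes. Translation factors of the TOP class lie at -0.28 and -0.22 in controls 1 and 2 and at 0.21 in control 3, close to the cytosolic ribosomal proteins, while all genes stay near 0.

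Several members serve as reference genes in quantitative PCR. Rplp0, Rpl13a and Rpl19 had log2 fold changes of 0.42, 0.21 and 0.14. Rpl13a had 11.05, 11.24 and 11.13 with GnRH and 10.71, 10.82 and 11.26 in controls, so control 3 was the highest array. Of 7 measured reference genes from other pathways, among them Ywhaz, B2m and Gusb, the median was -0.052, with 1 above 0 and 0 past the test. The exception was Gusb, a lysosomal enzyme, with 7.04, 7.01 and 7.08 in the GnRH arrays and 6.88, 6.87 and 6.78 in controls (0.20 ± 0.083, limma adjusted p = 0.374). In the other 6 of these 7, control 3 was the highest array, as in Rpl13a. The 5 measured ribosomal protein paralogs, such as Rpl7l1 and Rps27l, had a median of -0.036, with 2 above 0 and 0 past the test.

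The other 181 genes with a mean log2 of at least 10 had a median log2 fold change of 0.052, with 108 above 0, and a control 3 excess of 0.23, between the values of all genes and of the members. Among the 38 bright members, the log2 fold change correlated with the mean signal at r = -0.373, a description across genes that share the same arrays. The SD of all log2 values was 1.57, 1.58 and 1.6 in the GnRH arrays and 1.52, 1.53 and 1.6 in controls 1, 2 and 3. Controls 1 and 2, the arrays with the lowest ribosomal protein values, thus also had the smallest SDs. The part of this in the results was not tested. Repeating quantile normalization lowered the member median to 0.066, with 35 of 42 above 0, and cyclic loess lowered it to 0.041, with 29 above 0.

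Markers of other cell types were also compared, since ribosomal protein mRNA comes from every cell, and in bulk RNA fewer cells of a type and less RNA per cell cannot be told apart. The summed linear signal of 8 of 9 pituitary markers measured was 52387 to 54612 with GnRH. It was 48246, 48387 and 53830 in controls 1, 2 and 3, so control 3 lay among the GnRH arrays. Single members differed in direction, from 0.80 for Pitx1 to -0.82 for Pomc in log2 fold change, and 5 of 8 were above 0. Of the other lists, 5 of 5 posterior lobe and glial markers summed to 445 to 706 with GnRH and 748 to 1070 in controls, without overlap. Gfap had the lowest log2 fold change of these (-1.97), whereas Nefl (0.45) and Nefm (0.094) lay above 0. Leukocyte markers (5 of 5) gave 1025 to 1275 with GnRH and 996 to 1171 in controls. Fibroblast and pericyte markers (5 of 5) gave 674 to 954 with GnRH and 942, 948 and 688 in controls 1, 2 and 3. Among them Col1a2, at 0.61, lay above every control, and Dcn (-0.63) and Lum (-0.54) below every control. Endothelial markers (3 of 4) gave 303 to 328 with GnRH and 308 to 336 in controls. Red blood cell markers (2 of 4) gave 1446 to 2344 with GnRH and 1205 to 2807 in controls, with control 3 the lowest array. None of these markers passed the test and none was listed at 0, and their part in the ribosomal protein values was not tested.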

How the data were processed

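The authors deposited linear-scale intensity values for 6 arrays, 1 per sample, normalized, per the submitters' processing notes, with RMA. The sources used here do not give software, version or filters. The table held 31042 probe sets, without calls of presence or absence. Log2 was taken with no pseudocount. Gene names came from the array annotation, updated by gene identifier against the GRCr8 table (20758 of 20826 probe sets with 1 symbol), and promoter sequences from RefSeq (35 of 42 members matched by gene identifier). GnRH and control arrays, grouped by title, were compared over all probe sets with limma 3.58.1 under R 4.3.3 (2-sided moderated test, no covariate, no filter). Benjamini-Hochberg adjustment ran over the whole table of probe sets, at a threshold of 0.05. The fit was tested on simulated data. Gene lists came from general knowledge, and members and lists were chosen with earlier results of these data known. They are described by counts and medians, beside 14217 genes with 1 probe set each.

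Genes are named by rule: in each subunit the 5 smallest p-values and the 3 lowest log2 fold changes; Rplp0, Rpsa, Rps6, X-linked members and reference genes; and up to 3 genes per list. Genes called without control 3, members outside the common order, members on dim probe sets, cell type markers and genes with several probe sets were added after their values were seen. The number of arrays limits the precision. Alternatives were other normalizations, a filter, a pseudocount of 16, other variance models, array weights, a replicate block, arrays left out and other probe set rules.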

Additional observations from a re-analysis of the deposited data

How the results depend on the processing

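Of all probe sets 144 passed, and 90 did so with quantile normalization, 93 with cyclic loess, 74 with log2(value + 16), 3020 with array weights, 265 against control 3 alone and 341 at an adjusted p under 0.10. Leaving out 1 array gave 51, 20 and 65 without GnRH 1, 2 or 3, and 69, 28 and 2309 without control 1, 2 or 3. Ribosomal protein genes past the threshold numbered 0 in all settings except array weights (4) and without control 3 (8), so 0 to 8 without 1 array. Against control 3 alone, where the lone control was assumed to vary like the GnRH arrays, 2 of 42 members were above 0, and the medians were -0.13 over all members, -0.12 in the large and -0.13 in the small subunit. In all other settings the median stayed above 0, from 0.041 with cyclic loess to 0.25 without control 3. Of the settings chosen after seeing the data, with the shared probe sets added 72 of 75 were above 0, and without dim members 37 of 38.

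Against control 3 alone the sign turned in Rplp0 (-0.17), Rpl11 (-0.054), Rpl13a (-0.12), Rpl19 (-0.051), Rpl21 (-0.050), Rpl23 (-0.12), Rpl24 (-0.084), Rpl39 (-0.12), Rpsa (-0.059), Rps6 (-0.13), Rps9 (-0.19), Rps15 (-0.14), Rps15a (-0.10), Rps23 (-0.21) and Rps24 (-0.086), and in Rpl28 (0.011). Quantile normalization turned Rpl23 (-0.045), Rps9 (-0.020) and Rpl28 (0.039), and cyclic loess turned Rpl23 (-0.037), Rps6 (-0.018), Rps9 (-0.024), Rps23 (-0.042) and Rpl28 (0.044). Rpl28 also turned with median centring (0.014) and array weights (0.043), and Rpl37a with array weights (0.050). Without 1 array, Rpl28 ranged from -0.086 to 0.059, Rpl37a from -0.065 to 0.058, Rpl23 from -0.026 to 0.14, Rps9 from -0.053 to 0.20 and Rps23 from -0.012 to 0.19. None of these passed the test, and the cause was not tested.

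Same-numbered GnRH and control arrays had deviations correlated at 0.159, -0.0489 and 0.156, so the numbers were not taken to pair them. With the replicate block, 215 probe sets and 0 members passed, and the member median was 0.12.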
